A study of Mus musculus with 22 samples.

Results

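Newly made RNA was set against total RNA in control C2C12 cells, a mouse myoblast line. The comparison took the 4 libraries of the series, of 22 in all, that are titled as control C2C12 and as 4sU or input. In the 4sU group (2 libraries) untreated cells were cultured with 50 µM of 4-thiouridine (4sU) during their last 1 h, and the labelled RNA was sequenced. In the total RNA group (2 libraries, titled input) the cells are labelled untreated, and whether these came from the labelled cultures is not given. All 4 libraries came from the same cell line, labelled with the strain C57BL/6, and no control siRNA is named. Libraries were made with 3′READS, which captures and sequences the RNA piece at the poly(A) tail, so that each read counts an RNA 3′ end at its poly(A) site. The labels do not tell whether the 2 libraries of a group are separate cultures, and p-values then cover library-to-library spread only, possibly of technical origin.

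Cells take up 4sU and build it into the RNA they make, so the labelled fraction holds RNA made during the labelling time, while total RNA holds what has accumulated. An RNA that is made and degraded quickly is a larger part of labelled RNA than of total RNA, and a long-lived RNA is a smaller part. Many genes end their RNA at more than a single poly(A) site, which is called alternative polyadenylation. The proximal site lies upstream and gives the shorter 3′ end, and the distal site gives the longer 3′ end, which can carry more binding sites for microRNAs and proteins that act on decay, export or location. The labels of the 4sU libraries name differential decay of such isoforms as their purpose. The labelled-to-total ratio of a site is used here as a relative measure of turnover and gives no half-life. Whether the isolation of labelled RNA alters this ratio, for example with the length of the RNA, was not tested.

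Poly(A) positions were kept where at least 2 of the 12 C2C12 libraries had a CPM (a read count scaled to library size) of at least 1, which left 39540 sites. Sites on the same strand were chained over gaps of up to 5000 nt into 18349 site groups, which stand in place of genes. Such a group may be a gene, a piece of a gene or neighbouring genes together. The sites carry no gene names, and the gene tables used here are of another genome build than mm9, so gene lists, cell type markers of myoblasts and RNA sequences were not analysed here. The 4sU libraries held 2565623 and 2655317 reads, and the total RNA libraries held 2265023 and 2476170 reads. The 4sU libraries listed 81070 and 85660 positions, against 62320 and 65084 in the total RNA libraries, and 50.5% and 52.3% of these positions had a single read in 4sU RNA, against 42.5% and 42.7% in total RNA. Over the 5686 sites with at least 50 reads in each library, log2 CPM differed with an SD of 0.24 between the 4sU libraries and 0.24 between the total RNA libraries, while the mean difference between 4sU and total RNA had an SD of 0.47.

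The level of a site group in 4sU RNA relative to total RNA differed for many groups, and the largest differences were upward. edgeR's quasi-likelihood test called 3138 of 10986 groups (28.6%) at a Benjamini-Hochberg adjusted p under 0.05, with 1151 higher in 4sU RNA (10.5%) and 1987 lower (18.1%). A change of 2-fold or more upward was fitted for 557 of the called groups and downward for 229. At 4-fold the counts were 165 higher and 8 lower, and at 8-fold they were 62 higher and 2 lower. With the 16 higher groups that had no read in total RNA set to their lower bound, against a floor of 3 counts over both total RNA libraries, the upward counts were 557, 158 and 48. The split of the calls moved with the scaling. The median log2 difference over all groups was -0.11 under TMM scaling and 0.00 when counts were scaled to library totals, which gave 1547 groups higher and 1388 lower. Leaving out mitochondrial sites gave 1423 higher and 1523 lower, a median of -0.02. Fitting only the 4 control libraries gave 1460 higher and 1682 lower. The direction of a small change therefore holds for the TMM scaling, under which a group at the median counts as lower by 0.11. Without 4sU replicate 2 the test called 1645 groups, and without total RNA replicate 1 it called 1847. DESeq2 called 1631. In a bulk sample, fewer cells that make an RNA and less RNA per cell cannot be told apart.

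**Figure D1:**
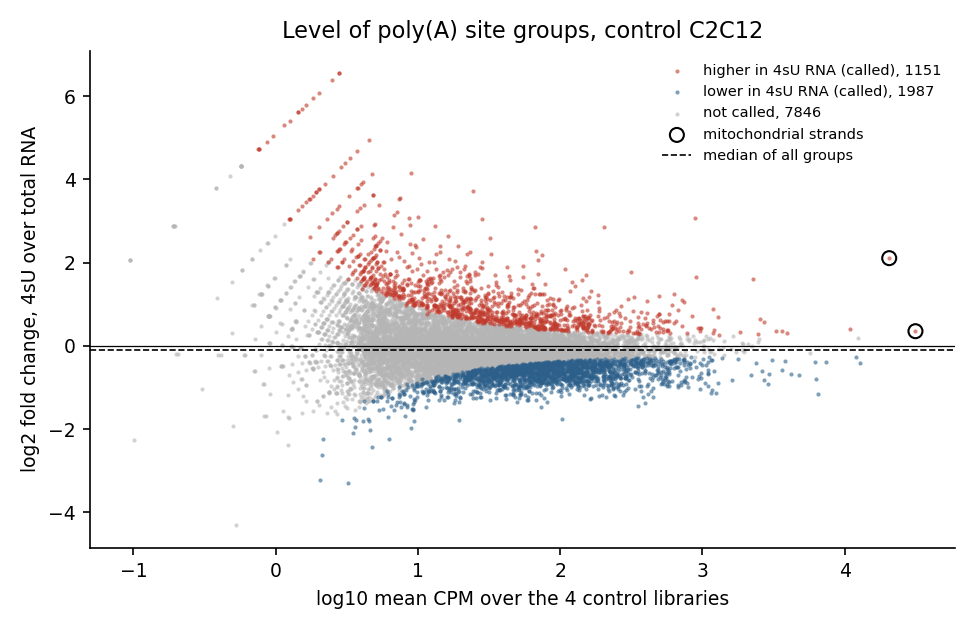
Each point is 1 of 10984 site groups with at least 1 read in the control libraries (2 groups with none are not drawn). The horizontal axis is log10 of the mean CPM over the 4 libraries, the vertical axis is the fitted log2 fold change of 4sU over total RNA, colours mark the groups called by edgeR, and circles mark the 2 mitochondrial strands. Called groups at least 4-fold higher (165) outnumber those at least 4-fold lower (8) and sit mostly at low CPM, where a group with no read in total RNA has a fold change set by the prior count. Groups that were lower sit mostly at high CPM.

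The share of groups called lower differed with abundance. The nuclear groups were divided into 4 equal bins of 2746 by their CPM in the 2 libraries of proliferating C2C12 cells, which were not used in the fit. In the lowest bin (up to 8.98 CPM) 13.4% were called higher and 2.22% lower, with a median log2 difference of 0.20. In the second bin the shares were 10.0% higher and 7.61% lower, with a median of -0.06. In the third bin they were 9.80% higher and 20.8% lower, with a median of -0.15. In the highest bin (74.2 CPM and above) 8.59% were called higher and 41.7% lower, with a median of -0.26. The share called lower was thus larger in each more abundant bin, while the share called higher changed less. The proliferating libraries hold total RNA of the same cell line, so the bins follow the level of total RNA, which the ratio divides by. A lower ratio in more abundant bins can therefore follow from this choice, and its part was not tested. The shares and medians of the bins are under TMM scaling, and the bins were not compared under other scalings. Depth differs between bins by design, and a group with more reads is called at a smaller change. The lowest bin starts at 0 CPM and holds 149 of the nuclear groups at least 4-fold higher. A group with few reads in total RNA can pass the filter on low counts through the 4sU libraries alone, and the part of this filter in the upward values of that bin was not tested.

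The groups at least 4-fold higher were mostly short of reads and held a single site. Of the 165, 133 held a single poly(A) site, against 3805 of all 10986 groups tested. At least 100 reads over the 4 control libraries were found in 28. The 4sU reads of the 165 groups, summed over both libraries, ranged from 8 to 176997 with a median of 37. Their median CPM was 7.13 in 4sU RNA, against 1.05 in total RNA. For the 16 with no read in either total RNA library, fitted fold changes depend on the prior count, and 4sU RNA was at least 2.42-fold to 8.78-fold higher against the floor of 3 counts. In libraries of C2C12 cells treated with an siRNA against Pcf11, a factor of RNA cleavage and transcription termination, 156 of the 165 were also higher in 4sU RNA, and 90 were called there. Of all 10986 groups, 70.9% had the same direction in both cell groups, and 2061 were called in siPcf11 cells. The filter on low counts took the 8 control and siPcf11 libraries together. A group with few reads in total RNA can thus pass it through 4sU libraries of either cell group. The part of this filter in the shared direction of the 165 was not tested. Without 4sU replicate 2 the count was 94 in place of 165, and by DESeq2 it was 61.

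Of the groups with at least 100 reads and no overlap between the libraries, the 6 with the highest fold change included a group of high abundance. On chromosome 19, plus strand, between 31161086 and 31161481 (mm9), a group of 2 sites had 1292 and 1918 CPM in 4sU RNA, against 136 and 220 CPM in total RNA. The fitted log2 difference was 3.07 ± 0.13 (SE), adjusted p = 8.5e-78, and in siPcf11 cells it was 2.69. The proliferating libraries, which are total RNA, held 100.0 and 165 CPM.

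The other 5 were of lower level. A single site on chromosome 14, minus strand, at 73227191 had 38.2 and 53.1 CPM in 4sU RNA, against 3.53 and 2.83 CPM in total RNA (log2 difference 3.73 ± 0.32 SE, edgeR adjusted p = 4.0e-24). A single site on the X chromosome, minus strand, at 20158151 had 93.2 and 144 CPM in 4sU RNA, against 14.1 and 16.2 CPM in total RNA (2.86 ± 0.20, adjusted p = 3.6e-35). A single site on chromosome 11, minus strand, at 92128408 had 42.1 and 59.5 CPM in 4sU RNA, against 4.86 and 6.46 CPM in total RNA (3.05 ± 0.28). These 3 were called higher in siPcf11 cells as well, by 2.45, 3.01 and 2.55 on the log2 scale. The other two were not called there. A group of 5 sites lay on chromosome 3, minus strand, between 96303944 and 96310313. It had 17.5 and 18.5 CPM in 4sU RNA, against 2.65 and 1.21 CPM in total RNA (3.10 ± 0.50). Its call in control cells was lost under DESeq2, where the difference was 3.20. In siPcf11 cells this group had 2 and 2 reads in 4sU RNA, against 0 and 5 in total RNA. Its log2 difference there (-0.23) thus rests on very few reads. A single site on chromosome 19, plus strand, at 9062079 had 25.3 and 21.8 CPM in 4sU RNA, against 3.53 and 2.42 CPM in total RNA (2.87 ± 0.42). In siPcf11 cells it had 4 and 7 reads in 4sU RNA, against 3 and 3 in total RNA. Its log2 difference there (0.92) rests on few reads as well.

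The 6 groups with the lowest fold change differed less, with log2 differences between -1.79 and -1.39. A group of 4 sites on the X chromosome, minus strand, between 67596244 and 67598329 had 59.6 and 39.2 CPM in 4sU RNA, against 150.1 and 160.3 CPM in total RNA (log2 difference -1.76 ± 0.15 SE, edgeR adjusted p = 1.1e-23). A single site on chromosome 5, minus strand, at 137969357 had 228 and 231 CPM in 4sU RNA, against 581 and 537 CPM in total RNA (-1.39 ± 0.12, adjusted p = 5.8e-24). A group of 2 sites on chromosome 4, plus strand, between 137125673 and 137126545 had 206 and 195 CPM in 4sU RNA, against 532 and 488 CPM in total RNA (-1.45 ± 0.12, adjusted p = 9.6e-26). For these 3 groups the 4sU values lay well under the total RNA values. The 4sU values lay together on chromosomes 5 and 4, and further apart on the X chromosome. The single site on chromosome 11, minus strand, at 98249991 had 12.1 and 6.40 CPM in 4sU RNA, against 26.9 and 32.7 CPM in total RNA (-1.79 ± 0.28). The single site on chromosome 3, plus strand, at 88993211 had 53.0 and 29.4 CPM in 4sU RNA, against 109 and 101 CPM in total RNA (-1.46 ± 0.17). The single site on chromosome 18, minus strand, at 16433021 had 7.41 and 5.27 CPM in 4sU RNA, against 17.2 and 15.7 CPM in total RNA (-1.47 ± 0.35), and -0.31 in siPcf11 cells, where it was not called. The other 5 were called lower in siPcf11 cells too.

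The 6 most abundant groups of total RNA went in different directions. After the mitochondrial plus strand, the largest was on chromosome 15, plus strand, between 76731735 and 76739475, with 12104 and 10586 CPM in 4sU RNA, against 14184 and 14090 CPM in total RNA (log2 difference -0.42 ± 0.10 SE, edgeR adjusted p = 0.00021). The group on chromosome 4, minus strand, between 3761181 and 3762220 had 11913 and 10671 CPM in 4sU RNA, against 13130 and 12351 CPM in total RNA (-0.28, adjusted p = 0.021). Its call was lost under library totals (-0.17), DESeq2 size factors (-0.23), DESeq2 (-0.21), the 4 control libraries alone (-0.20), without mitochondrial sites (-0.19), without 4sU replicate 2 (-0.20) and without total RNA replicate 1 (-0.22). The group on chromosome 3, plus strand, between 90406625 and 90409964 had 13559 and 12154 CPM in 4sU RNA, against 9062 and 9177 CPM in total RNA (0.39 ± 0.10, adjusted p = 0.00061). With gaps of 10000 nt it joined other sites, and the joined group was not called (0.07). The group on chromosome 5, plus strand, between 104865465 and 104870461 had 13317 and 14237 CPM in 4sU RNA, against 10631 and 11891 CPM in total RNA, and was not called (0.19 ± 0.10, adjusted p = 0.14), but was called under library totals (0.30), DESeq2 (0.26), the 4 control libraries alone (0.26) and without mitochondrial sites (0.27). The group on chromosome 5, minus strand, between 143664796 and 143667028 had the largest difference of the 6, with 4560 and 3792 CPM in 4sU RNA, against 8860 and 8594 CPM in total RNA (-1.17 ± 0.10, adjusted p = 4.5e-24). In siPcf11 cells the same group differed by -0.20 and was not called, and the difference between the cell groups was not tested.

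Mitochondrial RNA ends showed a strand difference. The mitochondrial genome is transcribed from both strands as long precursors that are cut into single RNAs, most mRNAs lie on 1 strand, and the other strand carries few genes, so much of its transcript is degraded. Reads of the minus strand made up 3.16% and 3.61% of the 4sU libraries, against 0.652% and 0.812% of the total RNA libraries. Reads of the plus strand made up 3.55% and 3.74% of the 4sU libraries, against 2.53% and 2.79% of the total RNA libraries. Both strands were higher in both 4sU libraries. As a site group the minus strand differed by 2.11 ± 0.10 on the log2 scale (SE, edgeR adjusted p = 2.9e-63) and the plus strand by 0.35 ± 0.10 (adjusted p = 0.0018). Without total RNA replicate 1 the plus strand was not called (0.29), nor was its part around the site at 11544 with gaps of 2000 nt (0.24). In siPcf11 cells the minus strand made up 3.29% and 3.81% of the 4sU libraries, against 0.733% and 0.774% of the total RNA libraries.

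**Figure D2:**
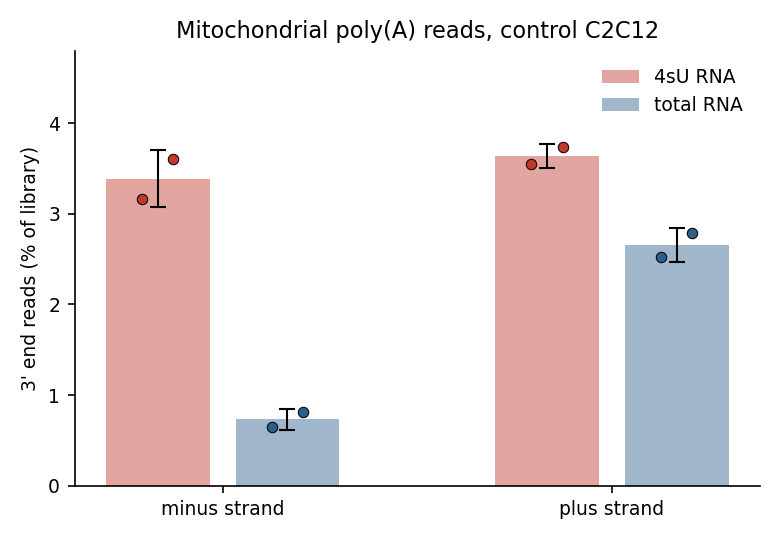
The vertical axis gives the 3′ end reads of each mitochondrial strand in percent of the library. Bars are means of 2 libraries, dots are single libraries, error bars are the SD, and 4sU RNA stands left of total RNA within each strand. The minus strand reads 3.16% and 3.61% in 4sU RNA, against 0.652% and 0.812% in total RNA.

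Most of the minus strand's reads came from a single position. The site at 16123 held 68373 and 79943 reads in the 4sU libraries, against 12440 and 17073 reads in the total RNA libraries (log2 difference 2.09 ± 0.10 SE). The sites at 16169 and 16037 differed more, by 3.26 ± 0.13 and 2.65 ± 0.13, with 5765 and 7646 reads at 16169 in 4sU RNA, against 469 and 722 in total RNA. All 5 of the most used minus-strand sites were called higher, including those at 14140 and 15423, by 1.05 and 1.27. Of 96 minus-strand sites tested, 44 were called higher and 0 lower by edgeR, with a median log2 difference of 1.27. At an unadjusted p under 0.05 the counts were 63 and 0, and by DESeq2 17 and 0. Over all 16642 single sites 22.9% were called, 8.76% higher and 14.2% lower.

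Sites on the plus strand differed in both directions. The most used site, at 11544, held 28601 and 31315 reads in 4sU RNA, against 20643 and 24640 reads in total RNA, and was not called (log2 difference 0.16 ± 0.10 SE, edgeR adjusted p = 0.26), though it was under library totals (0.28, edgeR adjusted p = 0.047). The site at 4950 was not called either (-0.14 ± 0.11). The sites at 3710 and 3845 were called higher, by 0.54 ± 0.11 and 1.20 ± 0.11, and the site at 3845 held 12678 and 12937 reads in 4sU RNA, against 3962 and 5496 reads in total RNA. By DESeq2 the site at 3710 was not called (adjusted p = 0.081). The site at 14145 was called higher by 0.52 ± 0.11. Of 268 plus-strand sites tested, 45 were called higher and 20 lower by edgeR, with a median log2 difference of 0.08. Among all 16642 single sites the same test called 22.9%, with 8.76% higher and 14.2% lower. At an unadjusted p under 0.05 the counts were 60 and 33, and by DESeq2 they were 32 and 4.

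Within a site group, use of the distal site was compared with use of the proximal site. A site counted as used where its share of the group's mean CPM over the 4 libraries reached 5%, and the pair was made of the 2 most used sites. Of 3037 pairs tested, edgeR called 346 (11.4%), of which 204 (6.72%) had more of their reads at the distal site in 4sU RNA than in total RNA and 142 (4.68%) had more at the proximal site. The median of the log2 shift (distal over proximal, 4sU over total) over all pairs was 0.03, and the median size of the shift, whatever its direction, was 0.47. Among the 204 toward the distal site, the proximal site had a median log2 difference of -0.66 and the distal site of 0.80, and in 174 pairs they lay below and above the median of all sites (-0.12). Among the 142 toward the proximal site, the medians were 0.72 for the proximal site and -0.54 for the distal site, and in 111 pairs they lay above and below that median. These medians and counts describe pairs chosen for their shift. Sites that differ so much mostly lie on opposite sides of that median, so the counts of 174 and 111 largely follow from the choice. Without 4sU replicate 2 the test called 85 pairs, without total RNA replicate 1 it called 104, and without total RNA replicate 2 it called 214.

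The distance between the sites of a pair separated the calls. Among 729 pairs whose sites lay at least 2000 nt apart, 90 were called toward the distal site (12.3%) and 27 toward the proximal site (3.70%), and the median shift was 0.19. Among 738 pairs under 200 nt apart, 30 were called toward the distal site and 31 toward the proximal site. Among 525 pairs of 200 to under 500 nt the counts were 23 and 26, and among 476 pairs of 500 to under 1000 nt they were 30 and 35. Among 569 pairs of 1000 to under 2000 nt they were 31 and 23. The median shift lay between -0.03 and 0.03 in all 4 groups under 2000 nt. In the pairs at least 2000 nt apart, the median log2 difference was -0.24 for the proximal site and -0.05 for the distal site.

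The excess of distal calls depended on how far sites were chained. With gaps of up to 2000 nt, 121 pairs were called toward the distal site and 121 toward the proximal site, and 14 pairs at least 2000 nt apart went to the distal site in place of 90. With gaps of up to 10000 nt, 133 did. Sites that far apart may belong to different genes or to a single long 3′ end, which cannot be told apart without an annotation of this build. Without 4sU replicate 2 the count at 2000 nt and above was 32, without total RNA replicate 1 it was 31, and without total RNA replicate 2 it was 54. The limit of 2000 nt was chosen after seeing the data.

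Distal use was also averaged over pairs. Over the 3699 pairs with at least 20 reads in each library, the distal site held on average 53.6% and 53.9% of the pair's reads in the 4sU libraries, against 52.8% and 53.0% in the total RNA libraries. Both 4sU libraries lay above both total RNA libraries, by 0.852 percentage points on average, and the exact two-sided permutation test gave p = 0.333, the smallest that 2 libraries against 2 allow. The difference was 0.372 points with gaps of up to 2000 nt, 0.469 points over pairs with at least 50 reads and 2.10 points over the pooled reads of all pairs. For the 886 pairs at least 2000 nt apart, the values were 54.0% and 54.5% in 4sU RNA, against 51.3% and 51.8% in total RNA, a difference of 2.71 points, with the same exact p of 0.333. For the 905 pairs under 200 nt apart, the values were 53.0% and 53.2% in 4sU RNA, against 52.9% and 52.9% in total RNA, a difference of 0.179 points. Between 200 and 2000 nt the difference was 0.230, 0.189 and 0.474 points in the 3 distance groups, and the 4sU and total RNA libraries overlapped in the pairs of 500 to under 1000 nt. The proliferating libraries, which were not used in the fit, gave 52.4% and 52.6% for the pairs at least 2000 nt apart, between the total and the 4sU values.

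**Figure D3:**
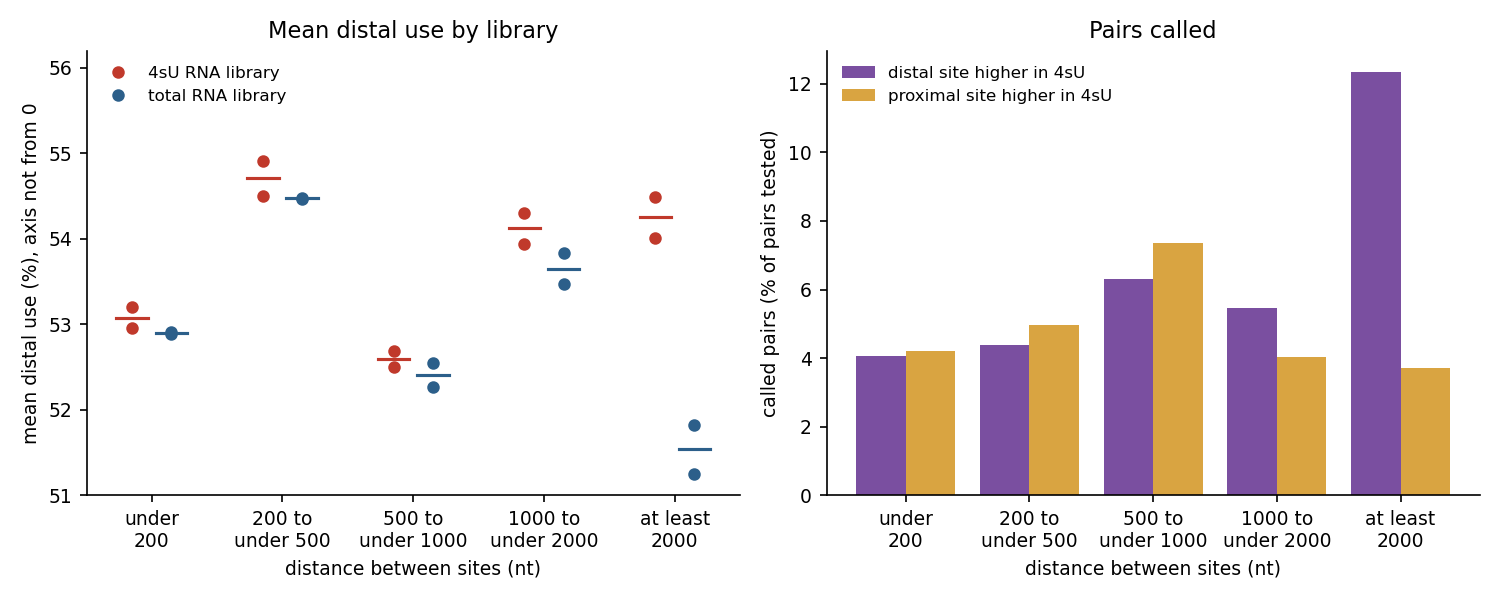
Left, the mean distal use (percent of the pair's reads at the distal site) is plotted by library and distance between the sites, with short lines for the mean of 2 libraries. The axis starts above 0, and 4sU RNA stands left of total RNA. Right, bars give the percent of tested pairs called by edgeR toward the distal or the proximal site in 4sU RNA. At 2000 nt and above, 12.3% were called toward the distal site and 3.70% toward the proximal site.

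The 6 pairs with the largest gain of distal use in 4sU RNA were taken from 277 of the 346 called pairs (3037 tested). These 277 had at least 50 reads in each library and no overlap of the groups (151 gained and 126 lost). Their number only sets which pairs could be named. The pair on chromosome 6, plus strand, with sites at 31457970 and 31466809 had 56.3% and 55.2% of its reads at the distal site in the 4sU libraries, against 8.14% and 15.9% in the total RNA libraries. The reads at the distal site were 67 and 69 in 4sU RNA, against 7 and 17 in total RNA, and those at the proximal site were 52 and 56 in 4sU RNA, against 79 and 90 in total RNA. The distal site was thus a minor end of total RNA and the larger end of labelled RNA. The shift was 3.14 ± 0.41 (SE, edgeR adjusted p = 2.3e-09), made of -0.89 at the proximal site and 2.25 at the distal site.

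For the pair on chromosome 4, minus strand, at 9378431 and 9376226, the distal site held 69.4% and 79.2% in 4sU RNA, against 40.0% and 35.0% in total RNA (shift 2.29 ± 0.41 SE, edgeR adjusted p = 2.5e-05). On chromosome 13, plus strand, at 55415377 and 55419686, it held 67.4% and 69.0% in 4sU RNA, against 37.3% and 31.2% in total RNA (2.05 ± 0.46, adjusted p = 0.00068). Both pairs had the proximal site as the larger end of total RNA and the distal site as the larger end of 4sU RNA. On chromosome 5, plus strand, at 28742641 and 28745784, the distal site held 42.0% and 44.8% in 4sU RNA, against 13.2% and 10.5% in total RNA (2.49 ± 0.41, adjusted p = 2.9e-06). On chromosome 3, plus strand, at 151895735 and 151899791, it held 39.2% and 42.3% in 4sU RNA, against 7.59% and 11.7% in total RNA (2.66 ± 0.35, adjusted p = 2.1e-09), and its proximal reads were similar in all libraries, 144 and 169 in 4sU RNA, against 146 and 166 in total RNA. In the last 2 pairs the proximal site stayed the larger end. On chromosome 14, minus strand, at 67634776 and 67633507, the distal site held 44.8% and 53.6% in 4sU RNA, against 12.8% and 24.0% in total RNA (2.00 ± 0.42), and without total RNA replicate 1 the shift was 1.58 and was not called. The proliferating libraries, which hold total RNA, had 45.7% and 46.4% at the distal site of this chromosome 14 pair. Both values lay between its 4sU values, above those of control total RNA. In the first 5 pairs the proliferating values lay below both 4sU values. The sites of the first 5 pairs were 2205 to 8839 nt apart, and those of the pair on chromosome 14 were 1269 nt apart.

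The 6 pairs with the largest loss had their sites 79 to 1564 nt apart. The pair on chromosome 13, minus strand, with sites at 38071364 and 38070064 was the deepest, with 45.8% and 31.6% of its reads at the distal site in 4sU RNA, against 76.9% and 69.4% in total RNA. The proximal reads were 409 and 691 in 4sU RNA, against 158 and 238 in total RNA, and the distal reads were 345 and 319 in 4sU RNA, against 526 and 540 in total RNA. The proximal end was thus the larger of the pair in labelled RNA, and the distal end in total RNA. The shift was -2.16 ± 0.23 (SE, edgeR adjusted p = 3.8e-13).

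In the pair on chromosome 19, minus strand, with sites at 29423189 and 29423089, the distal site held 59.6% and 46.2% in 4sU RNA, against 89.3% and 82.9% in total RNA (shift -2.40 ± 0.33 SE, edgeR adjusted p = 8.6e-09). In the pair on chromosome 14, plus strand, with sites at 45968502 and 45969368, it held 50.0% and 46.0% in 4sU RNA, against 82.0% and 79.3% in total RNA (-2.17 ± 0.29, adjusted p = 3.2e-09). In both, the reads were spread nearly evenly over the pair in 4sU RNA and lay mostly at the distal site in total RNA. On chromosome 16, minus strand, with sites at 32017949 and 32016385, the distal site held 55.0% and 38.3% in 4sU RNA, against 79.3% and 71.1% in total RNA (-1.77 ± 0.33). On chromosome 15, minus strand, with sites at 83130248 and 83130169, it held 48.5% and 26.1% in 4sU RNA, against 60.9% and 65.3% in total RNA (-1.60 ± 0.37). On chromosome 1, plus strand, with sites at 39053491 and 39054084, it held 53.1% and 49.3% in 4sU RNA, against 83.1% and 69.4% in total RNA (-1.55 ± 0.41). The shifts of the last 3 pairs without 4sU replicate 2 were -1.29, -0.87 and -1.43 in the order given and were not called, and the pair on chromosome 1 was not called without total RNA replicate 1 either (-1.11).

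**Figure D4:**
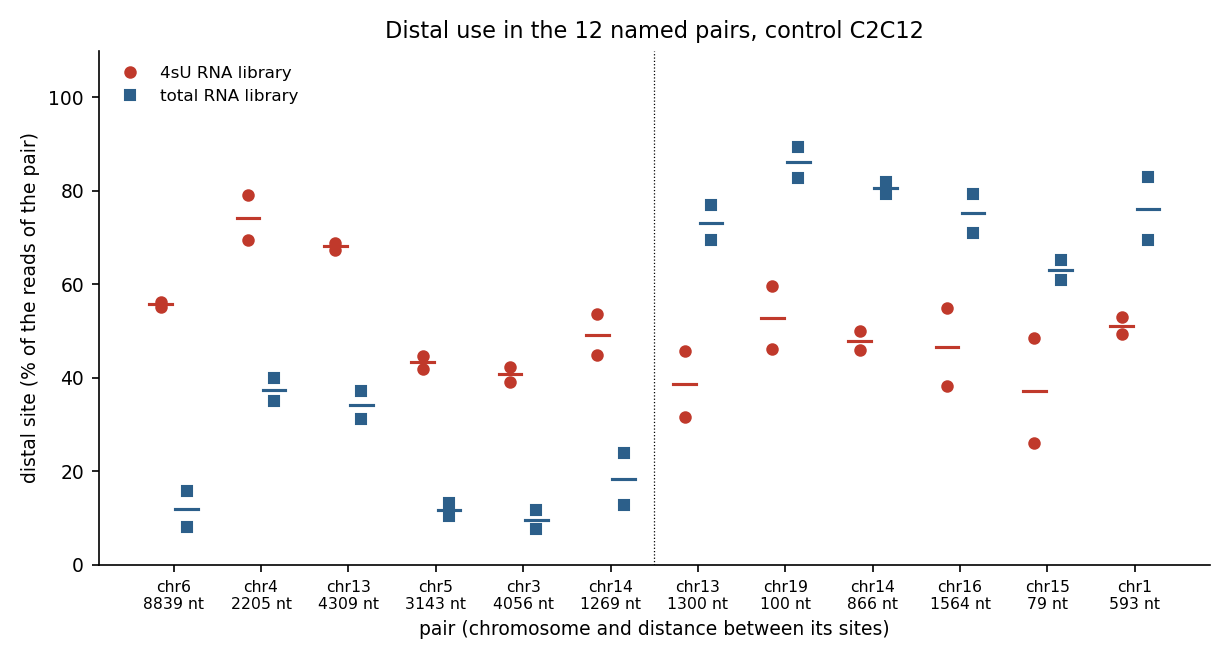
The vertical axis gives the percent of the pair's reads at the distal site. Each point is a library, short lines are means of 2 libraries, and 4sU RNA stands left of total RNA within each pair, which is named by its chromosome and the distance between its sites. Left of the dotted line are the 6 largest gains and right of it the 6 largest losses. Pairs were named only where the 4sU and total RNA values did not overlap, so their separation here follows from the choice.

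In the proliferating libraries, which hold total RNA, the distal site was the smaller of the pair in 128 of the 204 pairs called toward the distal site (62.7%), in 54 of the 142 called toward the proximal site (38.0%) and in 1238 of the 2691 pairs not called (46.0%). This is a description with no test. The pairs were chosen by their shift against total RNA of the same cell line, so such a contrast can follow from the choice. Called pairs toward the distal site gained a median of 17.6 percentage points of distal use, and those toward the proximal site lost a median of 14.0 points. In pairs that were not called the median size of the change was 4.54 points.

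The most 5′ used site was set against the sum of the other used sites of its group, which takes in groups with more than 2 used sites and includes early ends far upstream. edgeR called 299 of 2866 groups (10.4%), with 172 away from the most 5′ site in 4sU RNA (6.00%) and 127 toward it (4.43%). The median shift was 0.02. In the 1693 groups with 2 used sites this comparison takes the same reads as the pairs, and 110 were called away and 80 toward. In the 1173 groups with 3 or more used sites, 62 were called away (5.29%) and 47 toward (4.01%), with a median shift of 0.01. With gaps of up to 2000 nt the counts were 118 away and 116 toward. Without 4sU replicate 2 the test called 70 groups, without total RNA replicate 1 it called 98, and without total RNA replicate 2 it called 186.

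Single sites were also set by their place in the group. Over all 16278 nuclear sites tested, 8.41% were called higher and 14.4% lower, with a median log2 difference of -0.13. Of 3387 most 5′ used sites, 194 were called higher (5.73%) and 462 lower (13.6%), with a median log2 difference of -0.16. Of 1944 used sites in between, 127 were called higher (6.53%) and 218 lower (11.2%), with a median of -0.16. Of 3792 most 3′ used sites, 329 were called higher (8.68%) and 528 lower (13.9%), with a median of -0.11. Of 5710 sites that were the only used site of their group, 669 were called higher (11.7%) and 1049 lower (18.4%), with a median of -0.10. Of 1445 minor sites, with under 5% of the group's reads, 50 were called higher and 79 lower. Without 4sU replicate 2 the single-site test called 1708 sites and without total RNA replicate 1 it called 2112, in place of 3814, and under library totals 1850 were higher and 1617 lower.

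Sites with the strongest enrichment often had no other kept site close by. Of 226 nuclear sites called at least 4-fold higher, 132 (58.4%) were the only kept site of their group, against 492 of 2336 sites called lower (21.1%) and 2830 of 12573 sites not called (22.5%). A kept site on the opposite strand within 1000 nt, as 2 genes that end toward each other give, was found for 8 of the 226 sites (3.54%), for 324 of the sites called lower (13.9%) and for 1214 of the sites not called (9.66%). The median level over the 4 libraries was 4.26 CPM for the sites at least 4-fold higher, 54.9 CPM for those called lower and 10.7 CPM for those not called. The part that level plays in these shares was not tested.

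Libraries of siPcf11 C2C12 cells, 2 with 4sU and 2 of total RNA, share no library with the 4 control libraries, but were filtered, fitted and scaled together with them. Of the 346 called pairs, 314 shifted the same way there (90.8%), against 66.7% of all 3037 pairs tested, and 89 were called in both cell groups, all of them in the same direction. Across pairs the shifts had a Pearson r of 0.42 and a Spearman rho of 0.45 (n = 3037). For site groups r was 0.60 and rho 0.57 (n = 10986), and 2832 of the 3138 called groups differed the same way (90.2%), against 70.9% of all groups tested. Pairs and groups are measured in the same libraries and are not independent replicates, so no test is given.

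**Figure D5:**
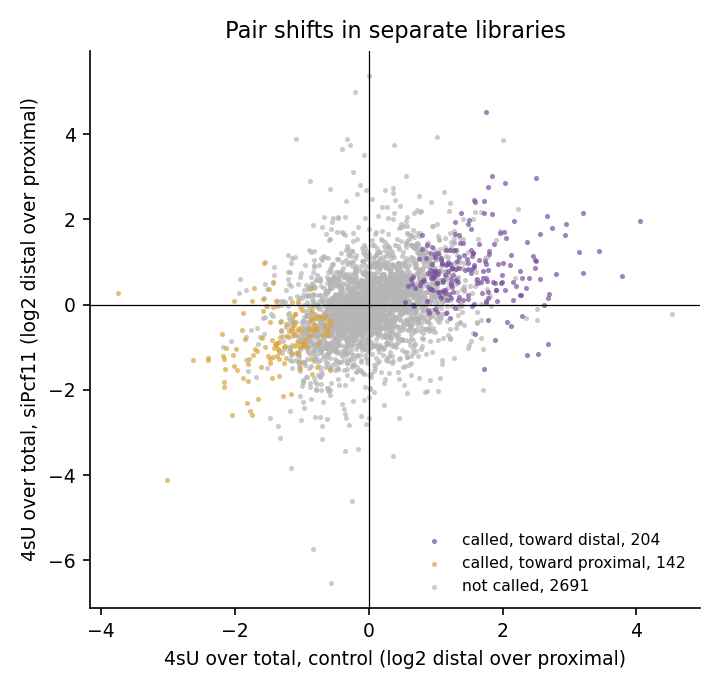
Each point is 1 of 3037 pairs. The horizontal axis is the log2 shift of distal over proximal reads, 4sU over total RNA, in control cells, and the vertical axis is the same shift in siPcf11 cells, with colours for pairs called in control cells. Of the called pairs, 314 of 346 lie in the quadrants where both shifts have the same sign.

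The named pairs followed this in part. The pair on chromosome 3 at 151895735 and 151899791 had 70.8% and 70.8% of its reads at the distal site in the siPcf11 4sU libraries, against 39.4% and 34.8% in the siPcf11 total RNA libraries (edgeR adjusted p = 0.0010). The pair on chromosome 13 at 38071364 and 38070064 had 46.7% and 43.9% in the siPcf11 4sU libraries, against 79.1% and 70.4% in the siPcf11 total RNA libraries (edgeR adjusted p = 1.4e-09). The 4sU libraries did not overlap the total RNA libraries in either pair. The pair on chromosome 4 had 80.2% and 85.9% in the siPcf11 4sU libraries, against 80.3% and 73.4% in the siPcf11 total RNA libraries, where the groups overlapped. Of the 12 named pairs, all shifted in the same direction in siPcf11 cells, and the pairs on chromosome 4, 5, 15 and 1 and the pair on chromosome 14, minus strand, were not called there.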

How the data were processed

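Each deposited file gives, per the file headers, a poly(A) position with its chromosome, strand and read count, which the authors deposited as whole numbers without normalization. The submitters' processing notes name cutadapt, Bowtie2 and STAR, with no versions, and the build mm9. The sources used here do not give how positions were clustered. The members, lists and tests were chosen with earlier results of these data known.

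CPM used all reads of a library. Counts of the 8 control and siPcf11 C2C12 libraries were fitted together with edgeR 4.0.16 in R 4.3.3, using TMM factors, a filterByExpr minimum of 10 and its quasi-likelihood test. Pairs and most 5′ sites were tested with diffSpliceDGE. Calls had a Benjamini-Hochberg adjusted p under 0.05. The code was tested on simulated data. DESeq2 1.42.0 was an alternative for levels. Named pairs were the 6 largest gains and 6 largest losses of distal use among called pairs with at least 50 reads in each library and no overlap. Named groups were the 6 highest and 6 lowest log2 differences among called groups with at least 100 reads in all and no overlap, and the 6 most abundant in total RNA. The alternatives were other scalings, filters, gaps, limits for a used site and sets of libraries. The kept sites held 97.7% to 98.3% of the reads of each control library. Reads without molecular identifiers are not independent molecules.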

Additional observations from a re-analysis of the deposited data

Results flagged for a closer look

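Mean distal use was higher in 4sU than in total RNA in control cells and lower in siPcf11 cells, over the same 3699 pairs. The difference was 0.852 percentage points in control cells, where both 4sU libraries lay above both total RNA libraries. It was -0.285 points in siPcf11 cells, with 56.9% and 56.8% in the 4sU libraries, against 57.0% and 57.3% in the total RNA libraries. The difference between the cell groups was not tested. For the 886 pairs at least 2000 nt apart the values were 60.5% and 60.5% in siPcf11 4sU RNA, against 60.3% and 60.3% in siPcf11 total RNA, a difference of 0.202 points.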

How the results depend on the processing

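Without each control library in turn, the calls numbered 1645 to 2626 for site groups, 1708 to 3015 for single sites, 85 to 262 for pairs and 70 to 233 for most 5′ sites. Pairs at least 2000 nt apart called toward the distal site numbered 31 to 69, and groups at least 4-fold higher 94 to 196, and the difference in mean distal use was 0.681 to 1.02 percentage points. DESeq2 called 1631 groups, 1795 sites and 61 groups at least 4-fold higher. With no filter on low counts 254 groups were at least 4-fold higher. With gaps of 2 kb, 14 pairs at least 2000 nt apart went to the distal site and the difference in mean distal use was 0.372 points. It was 0.469 points with at least 50 reads, 1.08 as a median over pairs and 2.10 over pooled reads. For these changes the cause was not tested. The counts at 2000 nt and at 4-fold were chosen after seeing the data. No named pair or site group changed sign under the alternatives in which it was present, nor did the difference in mean distal use. With gaps of 2 kb only 7 of the 12 named pairs were present, and with gaps of 10 kb 11 were. The pairs missing at 2 kb were all gains with sites over 2000 nt apart, so they could not be checked there. Under library totals more groups were higher than lower (1547 and 1388) and likewise more sites (1850 and 1617), where TMM scaling gave 1151 groups higher and 1987 lower and 1458 sites higher and 2356 lower. The libraries share only a replicate number. The correlation of same-numbered deviations was 0.20 over 5686 sites, and with the replicate number as a block the test called 3244 groups, 3908 sites, 362 pairs and 319 most 5′ sites. The difference in mean distal use is 0.852 points with such a block by construction, since both groups hold the same replicate numbers. Depth limits the low groups: with no read in total RNA, the floor of 3 counts over both libraries allowed no bound above 8.78-fold.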
